A study of Homo sapiens with 60 samples.

Results

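Lysosome and autophagy genes were followed in SW1783 cells, an established human astrocytoma line, after 24 h with plant extracts. The set was a list of 40 genes of known lysosomal or autophagy role, found by symbol among 60675 genes of the expected-count table. All 40 passed the filter on low counts, as did 18601 genes of the table. Their smallest expected count in any library ran from 228 for TFEB to 12520 for SQSTM1. The treated groups were ethanol extracts of 4 single herbs, Polygalae Radix, Aucklandiae Radix, Menthae Herba and Saposhnikoviae Radix, and of 4 multi-herb formulas, Soyo-san, Okbyeongpung-san, Guibi-tang and Saengmaek-san. Each was given at a low, a medium and a high dose, 5-fold apart. Polygalae Radix was used at 1.2, 6 and 30 µg/mL and Aucklandiae Radix at 6.4, 32 and 160 µg/mL. The other 6 extracts were used at 20, 100 and 500 µg/mL. Per the labels, the high dose of an extract with an IC20, the concentration that inhibits by 20%, under 500 µg/mL was that concentration. They were set against vehicle, 0.1% DMSO in the sample labels and 2% in the series text, with no other agent. All groups were the same line in L-15 medium. Okbyeongpung-san had 1 library a dose, Soyo-san, Polygalae Radix and Aucklandiae Radix had 2, and the other 4 extracts had 3, as did vehicle.

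Lysosomes are acidic organelles in which hydrolases break down proteins, sugars and lipids, at a pH kept low by a proton pump, the V-ATPase. Autophagy delivers cytoplasmic material to them. A kinase complex and a lipid kinase complex start a membrane cup, WIPI proteins bind the lipid made there, conjugation enzymes attach LC3 and GABARAP proteins to the membrane, and receptors such as p62 tie cargo to these proteins. Many lysosomal genes carry a palindromic E-box (the CLEAR element) near their start, which TFEB, TFE3 and MITF, factors of the MiT/TFE family, can bind when they enter the nucleus. In astrocytes this system clears protein aggregates, damaged mitochondria and material taken up from outside.

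The palindrome TCACGTGA, the core of that element, was searched in RefSeq promoter windows of 250 bases before to 50 bases after each gene's start (GRCh38.p14), where it reads the same on both strands. Windows existed for 32 of the 40 genes. It was present in 6 of these 32 genes (18.8%), LAMP1, MCOLN1, CTSA, GAA, PLBD2 and ATP6V0D1, and in 321 of all 27305 genes with windows (1.18%). By window this was 6 of 41 (14.6%), and 344 of all 35116 (0.98%). The shorter CACGTG, which every TCACGTGA contains, was in 8 of the 32 genes (25%), also in CTSD and NEU1, and in 8.77% of all genes. A match is a run of letters and no evidence of binding. The 4 windows below are of genes whose levels moved most among the 6, LAMP1, GAA and PLBD2 downwards and MCOLN1 upwards, and are read 5′ to 3′ on the plus strand, with each TCACGTGA in capitals. LAMP1 is chr13:113296989-113297288, GAA chr17:80101331-80101630, PLBD2 chr12:113358337-113358636 and MCOLN1 chr19:7522374-7522673. The first match starts 29 bases before the start of LAMP1, 77 before that of GAA, 25 before that of PLBD2 and 42 before that of MCOLN1. These are the RefSeq starts of the windows, which differ from the GENCODE starts in the gene positions given below. LAMP1, GAA and MCOLN1 hold 2 matches each, and PLBD2 holds 1.
LAMP1: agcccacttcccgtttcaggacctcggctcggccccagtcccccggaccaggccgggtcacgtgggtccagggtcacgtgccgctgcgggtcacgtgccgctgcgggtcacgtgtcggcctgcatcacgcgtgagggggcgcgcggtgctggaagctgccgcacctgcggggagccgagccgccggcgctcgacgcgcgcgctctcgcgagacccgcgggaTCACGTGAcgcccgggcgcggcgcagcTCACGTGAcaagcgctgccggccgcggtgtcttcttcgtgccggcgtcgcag
GAA: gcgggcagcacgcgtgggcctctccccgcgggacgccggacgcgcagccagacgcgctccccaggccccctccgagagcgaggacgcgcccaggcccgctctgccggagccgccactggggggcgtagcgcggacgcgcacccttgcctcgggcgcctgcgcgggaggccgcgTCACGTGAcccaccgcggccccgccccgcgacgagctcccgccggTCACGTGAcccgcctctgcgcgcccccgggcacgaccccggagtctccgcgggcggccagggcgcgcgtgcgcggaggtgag
PLBD2: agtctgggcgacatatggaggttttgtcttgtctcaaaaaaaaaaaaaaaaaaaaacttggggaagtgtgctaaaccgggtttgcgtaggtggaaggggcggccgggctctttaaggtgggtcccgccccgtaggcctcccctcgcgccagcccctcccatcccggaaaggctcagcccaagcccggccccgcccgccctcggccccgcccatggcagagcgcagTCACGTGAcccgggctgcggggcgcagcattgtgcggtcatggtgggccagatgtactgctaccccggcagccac
MCOLN1: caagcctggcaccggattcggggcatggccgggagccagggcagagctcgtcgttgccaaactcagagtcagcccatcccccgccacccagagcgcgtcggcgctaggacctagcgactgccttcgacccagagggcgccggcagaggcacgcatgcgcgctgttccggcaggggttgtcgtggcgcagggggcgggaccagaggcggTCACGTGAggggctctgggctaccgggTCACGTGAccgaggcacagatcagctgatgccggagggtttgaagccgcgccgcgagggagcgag

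The expected counts of a library summed to between 19031094 and 37686975, and in vehicle to between 25186538 and 26477754. Library names fall into sets. Polygalae Radix shares set 11 with Aucklandiae Radix, Menthae Herba set 12 with Saposhnikoviae Radix, Guibi-tang set 13 with Saengmaek-san and Okbyeongpung-san set 14 with Soyo-san, while vehicle is a set of its own. Set and extract therefore cannot be told apart in a comparison with vehicle, and all of these comparisons share the same 3 vehicle libraries. High against low dose stays within 1 set. In 10 of 60 libraries the counts were tilted towards short transcripts (slope of log2 deviation from vehicle on log2 transcript length under -0.15). Among high doses these were Saposhnikoviae Radix replicate 2 (-0.448), Okbyeongpung-san (-0.396), Menthae Herba replicate 3 (-0.345) and Saengmaek-san replicate 1 (-0.17). The high doses of Polygalae Radix (0.088 and 0.092) and Guibi-tang (0.065 to 0.079) leaned towards long transcripts. Theirs were the highest slopes of all libraries, against -0.031 to 0.027 in vehicle. The share of counts on mitochondrially encoded genes was 11.7% to 19.2% at the high dose of Polygalae Radix and 4.09% to 7.15% at that of Aucklandiae Radix, against 10.1% to 10.3% in vehicle. The part of the tilt and of this share in the results was not tested beyond the fits named. VIM, CD44, EGFR and CHI3L1, markers of astrocytic and mesenchymal glioma cells, were at 48.0 CPM or more in every library. GFAP and S100B reached at most 0.358 CPM and AQP4 was at 0 in 48 of 60. For these and the other cell type markers, CPM are counts scaled to an equal library total, without TMM. The CPM of the lysosome and autophagy genes below are also scaled by TMM. Of the 8 blood cell markers listed CD3E and AIF1 were at 0 in 60 and 55 libraries, but CD68, itself a lysosomal protein, was at 58.6 to 289.7 CPM, PTPRC at a median of 8.425 and CSF1R at 3.04, with 0 libraries at 0 for these 3. Of the neuronal markers SNAP25 and SYT1 had medians of 25.4 and 24.3 CPM, and the others medians from 0.0585 (STMN2) to 1.06 (SYP). Of the epithelial markers KRT18 had a median of 117 CPM and KRT8 of 16.0, while EPCAM, CDH1 and KRT5 were at 0.0377, 0.0341 and 0.0164. The endothelial list summed to at most 3.10 CPM.

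At the high dose, genes of the lysosomal lumen and its pump fell with Polygalae Radix and Guibi-tang. Of the autophagy genes a few rose and others fell, the falls with both extracts being of ATG9A, BECN1, ATG7 and NBR1. The shares of the autophagy genes called, either way, were near those over all genes given below. A call here is an adjusted p under 0.05 over the 18601 genes in edgeR's quasi-likelihood test. Values are shares of a whole culture's messenger RNA, in which fewer cells that express a gene and less of its RNA per cell cannot be told apart. With Polygalae Radix 26 of the 40 genes fell and 3 rose, beside 25.2% and 22.4% of all genes, and the median log2 fold change was -0.71, against 0.03 over all genes. With Guibi-tang 27 fell and 4 rose, beside 26.6% and 23.4% of all genes, at a median of -0.64, against 0.02. With Menthae Herba 14 fell and 4 rose, beside 11.4% and 9.48% of all genes, at a median of -0.16, against 0.02. Aucklandiae Radix had the most rises, 9, with 6 falls, beside 15.2% and 16.4% of all genes, at a median of 0.00, against -0.01. Few of the 40 were called in the others. Saengmaek-san had 2 rises and 2 falls, beside 7.66% and 7.63% of all genes. Saposhnikoviae Radix had 0 rises and 2 falls, beside 5.11% and 2.44%, and Soyo-san 1 rise and 0 falls, beside 1.12% and 0.817%. At an unadjusted p under 0.05 there were 6 rises with Saposhnikoviae Radix and 2 falls with Soyo-san. Doses differ between extracts, and a call with 1 extract and not with another is no test of their difference. Summed cell type markers, in CPM without TMM scaling, were also lower with Polygalae Radix and Guibi-tang. The 9 astrocyte and glioma markers summed to 2429 to 2475 CPM with Polygalae Radix and 2778 to 3015 with Guibi-tang, against 8677 to 8800 in vehicle, and the 5 epithelial markers to 31.2 to 35.15 and 30.1 to 31.4, against 133 to 145. The 8 blood cell markers summed to 62.5 to 86.2 and 139 to 172 CPM, against 184 to 194.5, and the 7 neuronal markers to 29.25 to 31.8 and 38.2 to 39.6, against 52.4 to 55.0. With Menthae Herba and Aucklandiae Radix the astrocyte and glioma sums were 7434 to 7969 and 7771 to 9325 CPM. The part of these shifts in the lysosomal counts was not tested. Calls with Polygalae Radix and Guibi-tang were 32 and 37 without the 10 tilted libraries. In the same refit Aucklandiae Radix had 28 calls instead of 15, Saposhnikoviae Radix 6 instead of 2, Saengmaek-san 14 instead of 4 and Soyo-san 12 instead of 1. Single libraries moved the smaller counts too, Aucklandiae Radix to 8 without its high replicate 3, and Saposhnikoviae Radix to 0 without its high replicate 2 or vehicle replicate 2, to 1 without vehicle replicate 1, to 10 without high replicate 1 and to 13 without high replicate 3. Fitting only the groups compared also left Saposhnikoviae Radix with 0 calls. Saengmaek-san fell to 2 calls without any 1 vehicle library or its high replicate 1 or 3, and Soyo-san to 0 without any 1 library or without the low-count filter.

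**Figure D1:**
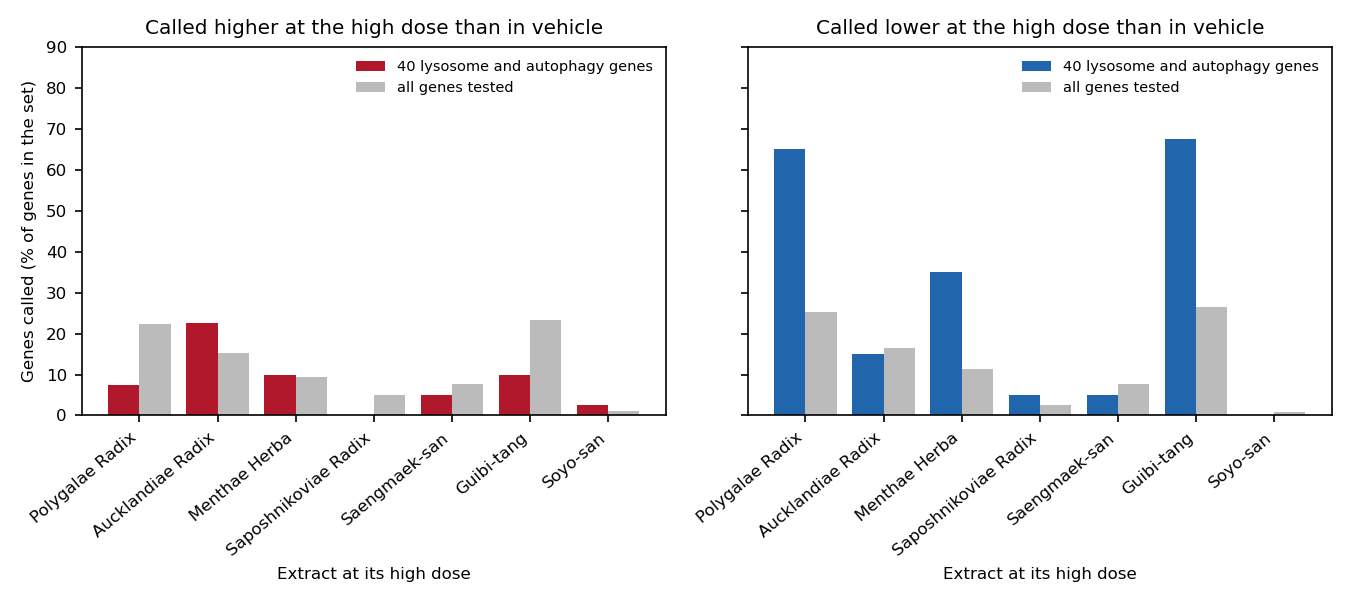
Share of genes called higher (left) and lower (right) at the high dose of each extract than in vehicle, in percent of the 40 lysosome and autophagy genes (coloured bars) and of the 18601 genes tested (grey bars). The coloured bars for falls stand far above the grey ones for Polygalae Radix and Guibi-tang, where 26 and 27 of the 40 genes fell.

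**Figure D2:**
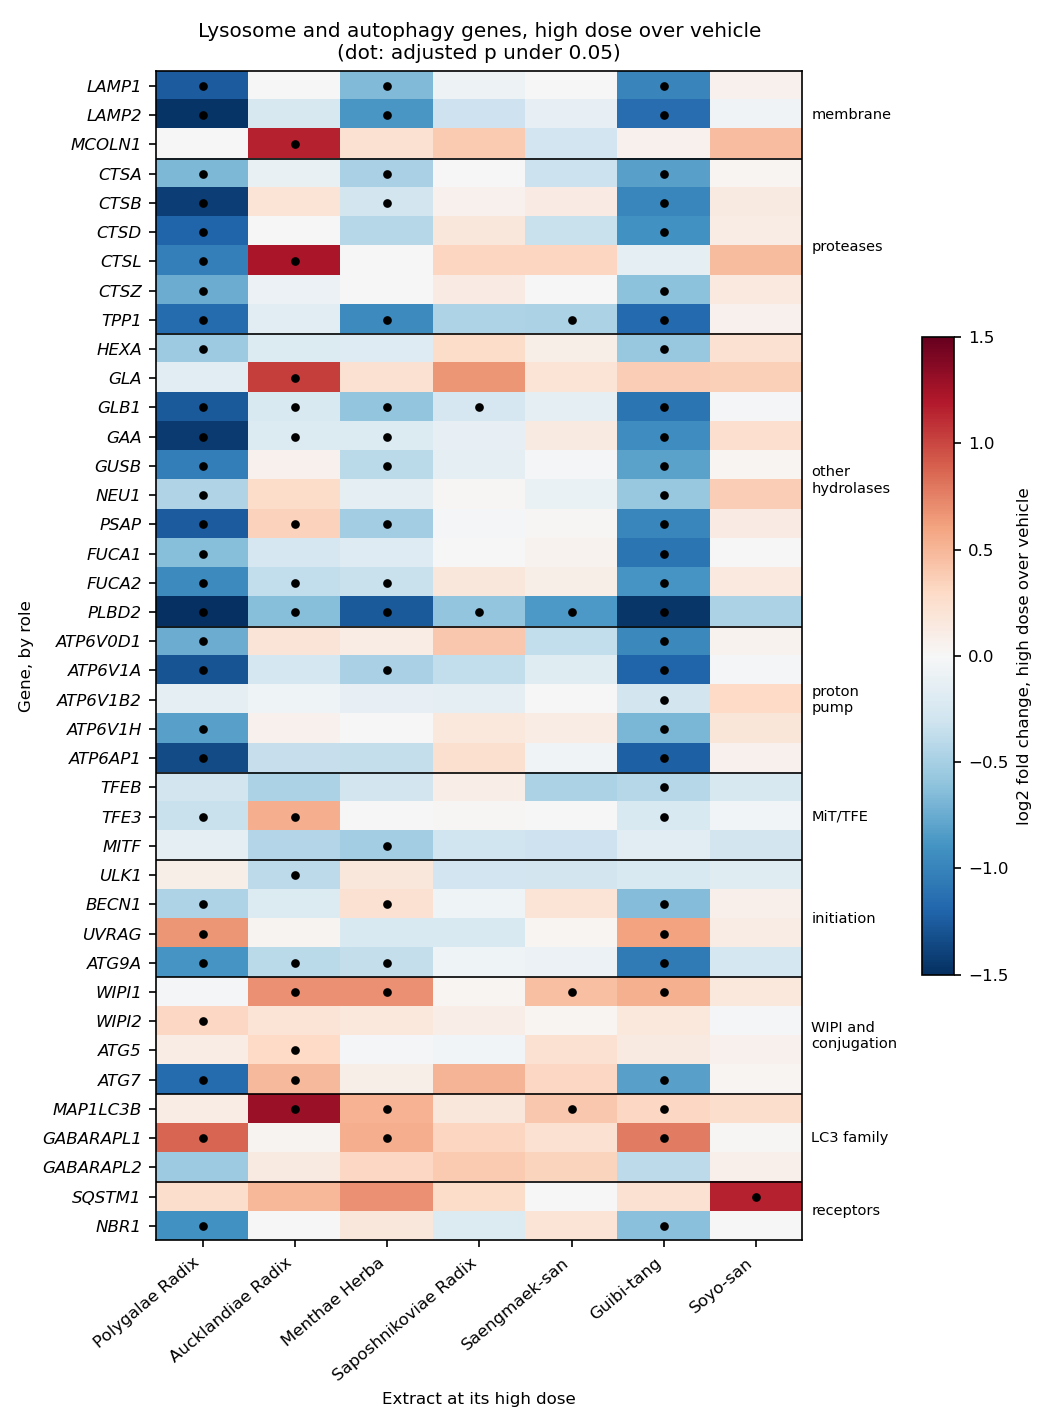
Log2 fold change of each of the 40 genes, high dose over vehicle, in 7 extracts (columns), with genes grouped by role and a dot where adjusted p was under 0.05. Blue (lower at the high dose) fills the upper rows, of lysosomal genes, for Polygalae Radix and Guibi-tang, and also marks ATG9A, BECN1, ATG7 and NBR1 there. Red squares with dots lie among the LC3, WIPI and initiation rows, and in the Aucklandiae Radix column at MCOLN1, CTSL and GLA.

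Comparisons of high with low dose, which use no vehicle library, gave the same counts for Polygalae Radix, 26 falls and 3 rises, beside 25.1% and 20.3% of all genes. Guibi-tang had 28 falls and 3 rises, beside 27.6% and 23.3%. Menthae Herba had 9 falls and 3 rises, beside 8.67% and 5.10%, and Aucklandiae Radix 3 falls and 6 rises, beside 13.1% and 9.68%. Saengmaek-san had 0 falls and 1 rise, beside 2.74% and 2.14%. Saposhnikoviae Radix had 0 and 0, beside 0.0806% and 0.0753%, and Soyo-san 0 and 0, beside 0.172% and 0.156%. At an unadjusted p under 0.05 these 3 had 4, 5 and 0 falls and 1, 0 and 5 rises, and DESeq2 called 0 genes with Saposhnikoviae Radix and 2 with Soyo-san. All 26 genes that fell with Polygalae Radix were among the 28 that fell with Guibi-tang, and UVRAG and GABARAPL1 rose with both. How many of all genes were called the same way in both was not counted, so the overlap is not shown to be particular to the 40. These comparisons share no library. Without the tilted libraries Menthae Herba had 24 calls instead of 12, Aucklandiae Radix 20 instead of 9, Saengmaek-san 9 instead of 1 and Soyo-san 7 instead of 0. Aucklandiae Radix had 5 without its low replicate 2 or 3, Saengmaek-san 0 without its high replicate 1 or low replicate 3, and Saposhnikoviae Radix 1 without its high replicate 2.

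**Figure D3:**
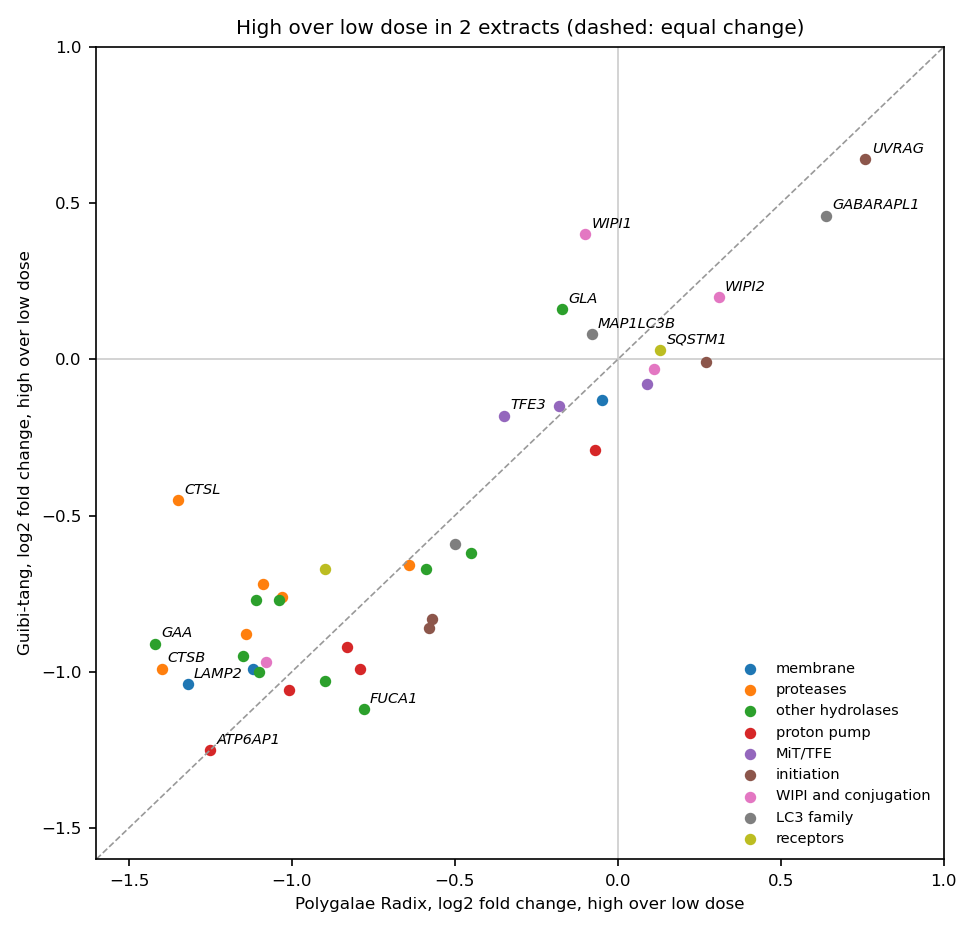
Log2 fold change, high over low dose, of the 40 genes with Polygalae Radix (x axis) and Guibi-tang (y axis), coloured by role, with a dashed line of equal change. Most hydrolase, membrane and pump genes lie at the lower left, UVRAG and GABARAPL1 at the upper right, and CTSL lies above the line, with -1.35 for Polygalae Radix and -0.45 for Guibi-tang.

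Of the lysosomal membrane proteins, LAMP1 and LAMP2, the main glycoproteins lining the lysosome, fell with Polygalae Radix, Guibi-tang and Menthae Herba. LAMP1 (ENSG00000185896, chromosome 13, 113297241 to 113323672, plus strand, GRCh38) was at 224 and 216 CPM in the Polygalae Radix high-dose libraries, 251, 269 and 273 in those of Guibi-tang and 343, 304 and 348 in those of Menthae Herba, against 531, 519 and 519.7 in vehicle. All 8 extract libraries lay below the vehicle libraries, with no overlap. The log2 fold changes were -1.25 ± 0.09 (adjusted p = 8.1e-15), -0.99 ± 0.08 (adjusted p = 1.0e-13) and -0.66 ± 0.08 (adjusted p = 3.8e-08), given with ± SE as are all that follow. Where leaving out any of several single libraries ended a call, the library named is the one with the highest adjusted p. Against the low dose they were -1.12 ± 0.10, -0.99 ± 0.08 and -0.62 ± 0.08, and called. With the other 4 extracts tested at single doses LAMP1 was not called at the high dose, with log2 fold changes from -0.08 to 0.07. LAMP2 (ENSG00000005893, chromosome X, 120427827 to 120469365, minus strand) was at 142 and 151 CPM with Polygalae Radix, 179, 187 and 187 with Guibi-tang and 268, 226 and 173 with Menthae Herba, against 392, 417 and 409.9 in vehicle. Again no extract library reached the lowest vehicle library, and in Menthae Herba the tilted replicate 3 was lowest. At the low dose of Menthae Herba LAMP2 was at 370.0, 394 and 394 CPM, also above the high dose, which differed by -0.79 ± 0.15 (adjusted p = 1.5e-04). Over vehicle LAMP2 changed by -1.47 ± 0.18 (adjusted p = 3.2e-09), -1.14 ± 0.15 (adjusted p = 2.9e-08) and -0.87 ± 0.15 (adjusted p = 3.0e-05). MCOLN1 (ENSG00000090674, chromosome 19, 7522626 to 7534009, plus strand), the calcium channel mucolipin, was called only with Aucklandiae Radix. It was at 50.2 and 50.5 CPM there, against 24.1, 20.5 and 23.3 in vehicle and 26.0 and 22.7 at the low dose. The high-dose libraries lay above all of these. The change was 1.15 ± 0.18 (adjusted p = 1.7e-06) over vehicle and 1.05 ± 0.20 (adjusted p = 7.9e-05) over the low dose. With Polygalae Radix and Guibi-tang, where LAMP1 and LAMP2 fell, MCOLN1 was at 22.6 and 22.7 CPM with Polygalae Radix and 22.2, 23.2 and 25.8 with Guibi-tang, inside or just above the vehicle range, with changes of 0.00 ± 0.18 and 0.07 ± 0.16 that were not called.

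**Figure D4:**
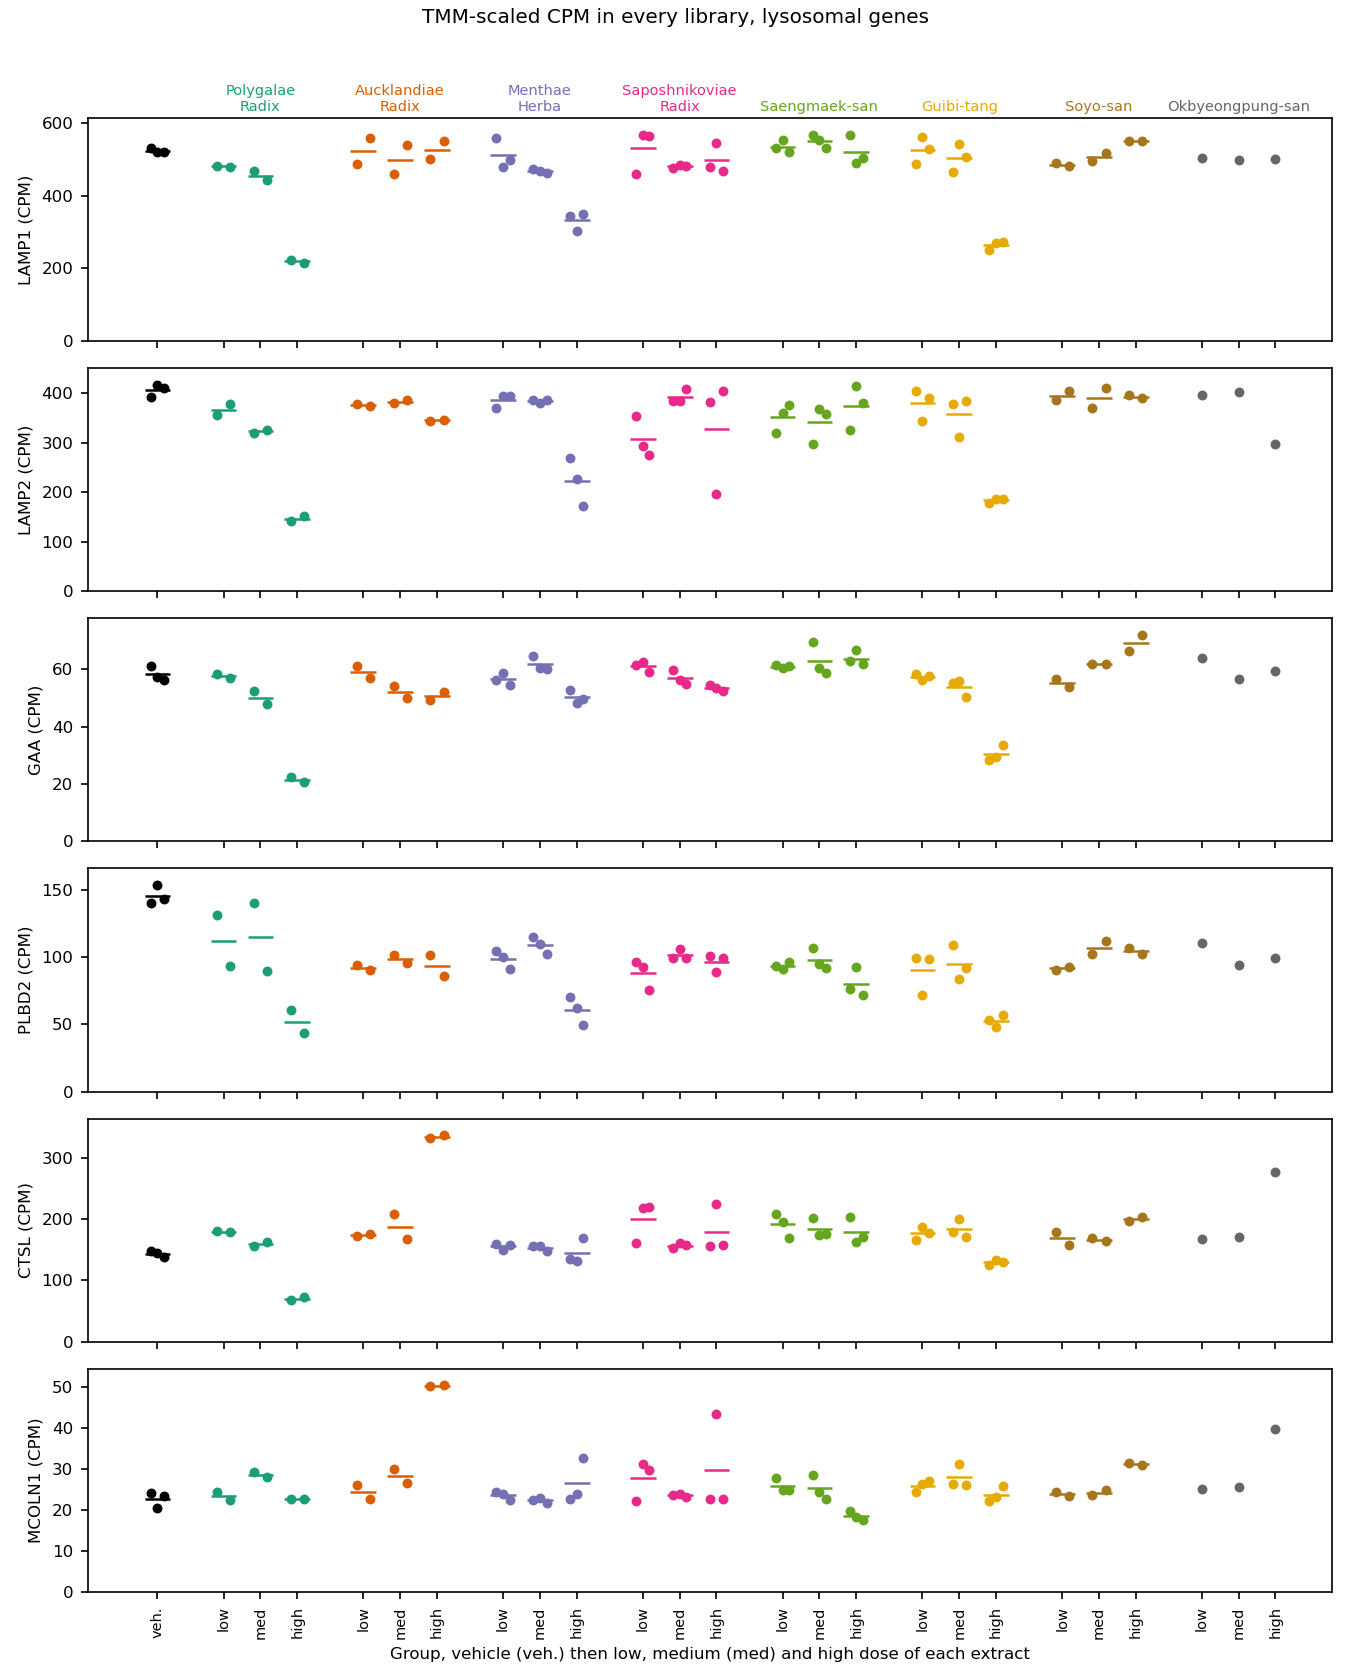
TMM-scaled CPM of 6 lysosomal genes in every library (points), with the mean of each group of 2 or 3 libraries (lines), for vehicle and then the low, medium and high dose of each extract. The high-dose means of Polygalae Radix and Guibi-tang are the lowest for LAMP1, LAMP2 and GAA, those of Aucklandiae Radix the highest for CTSL and MCOLN1, and vehicle is the highest group for PLBD2.

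The proteases fell together with Polygalae Radix, where all 6 of 6 were called lower, and with Guibi-tang, where 5 of 6 were. Of all genes 25.2% and 26.6% were called lower. CTSB, a cysteine cathepsin (ENSG00000164733, chromosome 8, 11842524 to 11869448, minus strand), was at 147 and 138 CPM with Polygalae Radix and 189, 187 and 199 with Guibi-tang, against 379.8, 394 and 359 in vehicle. The 5 extract libraries were all below the vehicle libraries. Its changes were -1.41 ± 0.11 (adjusted p = 4.4e-14) and -0.98 ± 0.10 (adjusted p = 1.4e-11). At the low dose of Polygalae Radix CTSB was at 353 and 400.1 CPM, and the high-dose libraries were again below, by a log2 change of -1.40 ± 0.12 (adjusted p = 3.3e-13). TPP1, a tripeptidyl peptidase whose loss causes a neuronal ceroid lipofuscinosis, was called lower with 4 extracts. It was at 107 and 86.9 CPM with Polygalae Radix, 124, 129 and 82.2 with Menthae Herba, 141, 177 and 150.1 with Saengmaek-san and 99.5, 86.5 and 104 with Guibi-tang, against 209, 228 and 214 in vehicle. None of these libraries overlapped vehicle. The changes were -1.16 ± 0.18 (adjusted p = 1.2e-06), -0.96 ± 0.16 (adjusted p = 1.6e-05), -0.48 ± 0.16 (adjusted p = 0.0346) and -1.17 ± 0.16 (adjusted p = 6.1e-08), and the call for Saengmaek-san was lost without its high replicate 1 (adjusted p = 0.160). Over the low dose TPP1 was called lower with 3 of 7 extracts, but not with Saengmaek-san. Its low dose was at -0.27 ± 0.16 over vehicle, not called, so set and extract cannot be told apart in that fall. CTSA, the protective protein of neuraminidase, fell by 0.67, 0.81 and 0.49 on the log2 scale with Polygalae Radix, Guibi-tang and Menthae Herba. CTSD, the main aspartic protease, fell by 1.20 and 0.91 and CTSZ, a carboxypeptidase, by 0.75 and 0.62 with Polygalae Radix and Guibi-tang.

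CTSL, a cysteine cathepsin (ENSG00000135047, chromosome 9, 87725519 to 87731393, plus strand), moved in opposite directions with 2 extracts of the same library set. It was at 332 and 337 CPM with Aucklandiae Radix and 68.0 and 72.1 with Polygalae Radix at the high dose, against 147, 145 and 138 in vehicle. The Aucklandiae Radix libraries were above and the Polygalae Radix libraries below every vehicle library. The changes over vehicle were 1.22 ± 0.15 (adjusted p = 1.3e-08) and -1.03 ± 0.16 (adjusted p = 5.2e-07). The low dose was at 172 and 175 CPM for Aucklandiae Radix and 179.6 and 178 for Polygalae Radix, and the changes over it were 0.95 ± 0.17 (adjusted p = 2.5e-05) and -1.35 ± 0.17 (adjusted p = 1.0e-08). With Guibi-tang CTSL, at 125, 133 and 129.6 CPM, was called lower only than at its low dose, at 165, 187 and 178 CPM, by a log2 change of -0.45 ± 0.14 (adjusted p = 0.00480), and over vehicle the change was -0.15 ± 0.13 (adjusted p = 0.374). The difference between extracts in the change over the low dose was not tested.

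Of the 10 other hydrolases, 9 fell with Polygalae Radix, 9 with Guibi-tang, 6 with Menthae Herba and 4 with Aucklandiae Radix. In the same order 25.2%, 26.6%, 11.4% and 16.4% of all genes were called lower. GAA, acid alpha-glucosidase, which degrades glycogen (ENSG00000171298, chromosome 17, 80101556 to 80119879, plus strand), was at 22.4 and 20.6 CPM with Polygalae Radix and 28.5, 29.2 and 33.6 with Guibi-tang, against 61.2, 57.2 and 56.2 in vehicle. At the low dose it was at 58.2 and 56.9 CPM with Polygalae Radix and 58.1, 56.1 and 57.7 with Guibi-tang, within the vehicle range or just below it. The high-dose libraries lay below all of these, with changes over vehicle of -1.44 ± 0.08 (adjusted p = 8.9e-19) and -0.93 ± 0.07 (adjusted p = 4.2e-15). With Aucklandiae Radix it was at 49.2 and 51.9 CPM, against 61.0 and 56.9 at its low dose, and with Menthae Herba at 52.6, 48.3 and 49.6. These libraries were below vehicle, and those of Aucklandiae Radix below its low dose. Over the low dose the changes were -1.42 ± 0.08 (adjusted p = 1.2e-17) with Polygalae Radix and -0.22 ± 0.08 (adjusted p = 0.0480) with Aucklandiae Radix, the second lost without Aucklandiae Radix low replicate 2 (adjusted p = 0.332). The smaller changes over vehicle with Aucklandiae Radix (-0.20 ± 0.08, adjusted p = 0.0367) and Menthae Herba (-0.21 ± 0.07, adjusted p = 0.0188) lost their call without 1 library (adjusted p = 0.240 without Aucklandiae Radix high replicate 2 and 0.119 without vehicle replicate 1). GLB1, beta-galactosidase, was called lower with 5 of 7 extracts. It was at 46.2 and 43.0 CPM with Polygalae Radix, 73.2, 69.5 and 70.4 with Menthae Herba and 49.2, 51.1 and 49.4 with Guibi-tang, against 111, 109 and 102 in vehicle. The groups did not overlap, and the changes were -1.26 ± 0.08 (adjusted p = 6.9e-17), -0.59 ± 0.07 (adjusted p = 1.5e-08) and -1.10 ± 0.07 (adjusted p = 4.6e-17). It was at 92.1 and 91.0 CPM with Aucklandiae Radix and 97.8, 76.2 and 95.8 with Saposhnikoviae Radix, also below vehicle. Its changes with Aucklandiae Radix (-0.23 ± 0.08, adjusted p = 0.0210) and Saposhnikoviae Radix (-0.25 ± 0.07, adjusted p = 0.0238) were lost without Aucklandiae Radix high replicate 3 (adjusted p = 0.134) and Saposhnikoviae Radix high replicate 2 (adjusted p = 0.291). Over the low dose GLB1 was called lower with 3 of 7 extracts, but not with these 2. Their low doses were at -0.12 ± 0.08 and -0.15 ± 0.07 over vehicle, not called, with all libraries below it. There set and extract cannot be told apart in the fall below vehicle.

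FUCA2, a fucosidase, fell with 4 extracts, to 42.3 and 49.1 CPM with Polygalae Radix, 46.6, 47.6 and 49.9 with Guibi-tang, 67.6, 61.0 and 83.0 with Menthae Herba and 65.0 and 72.2 with Aucklandiae Radix, against 91.2, 86.4 and 88.7 in vehicle. Every extract library was below vehicle. The changes were -0.96 ± 0.13 (adjusted p = 7.5e-08), -0.89 ± 0.12 (adjusted p = 1.9e-08), -0.33 ± 0.11 (adjusted p = 0.0334) and -0.37 ± 0.13 (adjusted p = 0.0237). The calls for Menthae Herba and Aucklandiae Radix were lost without a high-dose replicate 2 (adjusted p = 0.223 and 0.212). At the low dose of Aucklandiae Radix FUCA2 was at 90.1 and 92.5 CPM, and the high dose was lower by a log2 change of -0.41 ± 0.14 (adjusted p = 0.0277), lost without high replicate 2 (adjusted p = 0.222). FUCA1, its lysosomal relative, was at 9.94, 9.03 and 9.87 CPM at the high dose of Guibi-tang, against 20.9, 21.2 and 20.7 at the low dose, with no overlap and a change of -1.12 ± 0.10 (adjusted p = 5.9e-13). PSAP, the precursor of the saposins that activate sphingolipid hydrolases, fell by 1.25, 0.98 and 0.52 on the log2 scale with Polygalae Radix, Guibi-tang and Menthae Herba and rose with Aucklandiae Radix, by 0.35 ± 0.09 (adjusted p = 0.00342), lost without its high replicate 3 (adjusted p = 0.244). GUSB (beta-glucuronidase) fell with the same 3 extracts, by 1.04, 0.80 and 0.41. HEXA, the alpha chain of hexosaminidase, and NEU1, neuraminidase, fell with Polygalae Radix and Guibi-tang, HEXA by 0.54 and 0.57 and NEU1 by 0.45 and 0.57.

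GLA, alpha-galactosidase A, the enzyme deficient in Fabry disease, was the 1 hydrolase of the 10 called with neither Polygalae Radix nor Guibi-tang. With Aucklandiae Radix it was at 100.0 and 115 CPM, against 54.8, 51.4 and 51.4 in vehicle. The 2 libraries lay above vehicle, and the change was 1.04 ± 0.27 (adjusted p = 0.00297). Against the low dose, at 62.7 and 62.2 CPM, it was 0.79 ± 0.31 (adjusted p = 0.0594), not called but at an unadjusted p under 0.05. The highest GLA level was 199 CPM in the single high-dose library of Okbyeongpung-san, and the next was the tilted replicate 2 of Saposhnikoviae Radix, whose 3 high-dose libraries were at 63.4, 120.3 and 66.3 CPM.

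PLBD2, a phospholipase B-like protein of the lysosome lumen (ENSG00000151176, chromosome 12, 113358566 to 113391625, plus strand), was the gene called lower most often, with 6 of 7 extracts at the high dose. It was at 60.4 and 43.6 CPM with Polygalae Radix, 53.2, 47.9 and 57.1 with Guibi-tang and 70.1, 62.1 and 49.7 with Menthae Herba, against 140.1, 154 and 143 in vehicle. It was at 76.2, 92.8 and 71.5 with Saengmaek-san, 101 and 85.8 with Aucklandiae Radix and 100.5, 89.2 and 99.6 with Saposhnikoviae Radix. No extract library at any of the 3 doses exceeded the lowest vehicle library, other than Polygalae Radix medium replicate 2 at 141 CPM. Changes over vehicle were -1.49 ± 0.17 (adjusted p = 5.9e-10), -1.46 ± 0.14 (adjusted p = 1.8e-11), -1.26 ± 0.14 (adjusted p = 7.5e-09), -0.86 ± 0.14 (adjusted p = 3.5e-05), -0.64 ± 0.16 (adjusted p = 0.00168) and -0.59 ± 0.14 (adjusted p = 0.0110). The last and the one before it were lost without Saposhnikoviae Radix high replicate 2 (adjusted p = 0.0679) and Aucklandiae Radix high replicate 3 (adjusted p = 0.0644). PLBD2 was also called lower than vehicle at the medium dose of 3 extracts and the low dose of 4, and each of these 7 calls was lost without 1 library (highest adjusted p from 0.0626 to 0.262 at the medium and 0.0522 to 0.493 at the low dose). The low dose was at 131 and 93.2 CPM with Polygalae Radix, 99.3, 72.1 and 98.9 with Guibi-tang and 104, 100.1 and 91.3 with Menthae Herba, above every high-dose library of the same extract. Within a set, high against low dose, it fell with 3 extracts, the changes being -1.11 ± 0.17 (adjusted p = 1.3e-06) with Polygalae Radix, -0.77 ± 0.14 (adjusted p = 1.4e-05) with Guibi-tang and -0.70 ± 0.14 (adjusted p = 3.6e-04) with Menthae Herba. With Aucklandiae Radix, Saengmaek-san and Saposhnikoviae Radix that difference was 0.02 ± 0.17, -0.22 ± 0.14 and 0.13 ± 0.14 and not called, and there set and extract cannot be told apart in the fall below vehicle.

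Proton pump genes fell with Guibi-tang in 5 of 5 and with Polygalae Radix in 4 of 5, beside 26.6% and 25.2% of all genes. ATP6AP1, an accessory subunit that helps assemble the pump, was at 129.5, 135 and 150.3 CPM with Guibi-tang and 135 and 122 with Polygalae Radix, against 334, 323 and 315 in vehicle. ATP6V1A, the catalytic subunit, was at 22.4, 25.2 and 23.5 CPM with Guibi-tang and 22.3 and 22.2 with Polygalae Radix, against 53.5, 53.3 and 56.9 in vehicle. Neither gene had an extract library inside the vehicle range. The changes of ATP6AP1 were -1.23 ± 0.14 (adjusted p = 1.2e-09) and -1.34 ± 0.16 (adjusted p = 5.6e-09), and those of ATP6V1A -1.20 ± 0.17 (adjusted p = 6.1e-08) and -1.29 ± 0.19 (adjusted p = 3.0e-07). The low dose of Guibi-tang was at 319, 332 and 337 CPM for ATP6AP1 and 49.9, 48.4 and 49.6 for ATP6V1A, without overlap with the high dose, and the changes over it were -1.25 ± 0.14 (adjusted p = 8.1e-10) and -1.06 ± 0.16 (adjusted p = 8.1e-07). ATP6V1A was also called lower with Menthae Herba, by a log2 change of -0.49 ± 0.16 (adjusted p = 0.0280), lost without its high replicate 3 (adjusted p = 0.229). ATP6V0D1, of the membrane sector, fell by 0.97 and 0.74 (the second lost without Polygalae Radix high replicate 3, adjusted p = 0.0675) and ATP6V1H, a regulatory subunit of the cytosolic sector, by 0.69 and 0.82 on the log2 scale with Guibi-tang and Polygalae Radix. ATP6V1B2, which forms the pump's catalytic ring with ATP6V1A, moved least, by a log2 change of -0.27 ± 0.08 (adjusted p = 0.00288) with Guibi-tang and -0.14 ± 0.09 (adjusted p = 0.189) with Polygalae Radix. None of the 5 was called with Aucklandiae Radix, beside 15.2% of all genes called higher and 16.4% lower.

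Of the 3 MiT/TFE factors, TFE3 was called with 3 extracts, TFEB with 1 and MITF with 1. TFE3 (ENSG00000068323, chromosome X, 49028726 to 49043486, minus strand) was at 238 and 244 CPM with Aucklandiae Radix, against 167, 162 and 165 in vehicle, and fell to 134 and 128 with Polygalae Radix and 142, 137 and 141 with Guibi-tang. The Aucklandiae Radix libraries were above all vehicle libraries and the others below. The changes were 0.55 ± 0.07 (adjusted p = 1.6e-08), -0.33 ± 0.07 (adjusted p = 1.0e-04) and -0.23 ± 0.06 (adjusted p = 0.00139), and over the low dose 0.54 ± 0.07 (adjusted p = 3.2e-07), -0.35 ± 0.07 (adjusted p = 1.9e-04) and -0.18 ± 0.06 (adjusted p = 0.0108), the last lost without Guibi-tang high replicate 2 (adjusted p = 0.0870). TFEB was at 9.7 and 11.6 CPM with Aucklandiae Radix, 12.4 and 12.2 with Polygalae Radix and 11.8, 11.5 and 9.65 with Guibi-tang, against 16.2, 14.0 and 14.1 in vehicle. All were below vehicle, but only the Guibi-tang change was called, -0.43 ± 0.18 (adjusted p = 0.0494), and it was lost without Guibi-tang high replicate 3 (adjusted p = 0.177). Over the low dose TFEB was called with 0 of 7 extracts, and 0 of 7 were at an unadjusted p under 0.05. MITF was at 21.9, 19.3 and 16.1 CPM with Menthae Herba, against 25.7, 27.5 and 28.8 in vehicle and 28.2, 32.0 and 30.1 at the low dose. The 3 libraries were below both groups, the tilted replicate 3 lowest, with changes of -0.52 ± 0.16 (adjusted p = 0.0175) over vehicle, lost without that replicate (adjusted p = 0.134), and -0.66 ± 0.16 (adjusted p = 0.00335) over the low dose. These are transcript levels. The activity of these factors is set largely by their location in the cell, which was not measured.

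Genes of autophagy initiation and nucleation split, beside 25.2% lower and 22.4% higher of all genes with Polygalae Radix and 26.6% and 23.4% with Guibi-tang. ATG9A, the scramblase of the vesicles that seed the autophagosome (ENSG00000198925, chromosome 2, 219219380 to 219229717, minus strand), was at 48.5, 46.3 and 48.3 CPM with Guibi-tang, 55.4 and 53.0 with Polygalae Radix, 72.4 and 78.9 with Aucklandiae Radix and 79.6, 71.9 and 81.3 with Menthae Herba, against 100.1, 97.4 and 101 in vehicle. All 10 libraries were below vehicle. The changes were -1.06 ± 0.07 (adjusted p = 5.2e-17), -0.88 ± 0.08 (adjusted p = 9.3e-13), -0.40 ± 0.08 (adjusted p = 5.3e-05) and -0.36 ± 0.07 (adjusted p = 8.2e-05). Over the low dose it was called with Guibi-tang (-0.86 ± 0.07, adjusted p = 3.7e-14) and Polygalae Radix (-0.58 ± 0.08, adjusted p = 1.5e-07). With Aucklandiae Radix and Menthae Herba it was not, and there set and extract cannot be told apart in the fall below vehicle. The low-dose libraries of every extract tested at single doses were already below vehicle for ATG9A. Their changes ran from -0.30 with Polygalae Radix to -0.20 with Aucklandiae Radix and Saposhnikoviae Radix. UVRAG, a subunit of the lipid kinase complex that acts in maturation and endosome traffic (ENSG00000198382, chromosome 11, 75815167 to 76143195, plus strand), went the other way, at 42.4 and 43.0 CPM with Polygalae Radix and 41.7, 41.4 and 40.3 with Guibi-tang, against 26.6, 26.7 and 27.9 in vehicle. All 5 libraries were above vehicle. The rises were 0.66 ± 0.15 (adjusted p = 4.1e-04) and 0.60 ± 0.14 (adjusted p = 3.3e-04) over vehicle, and 0.76 ± 0.17 (adjusted p = 3.1e-04) and 0.64 ± 0.14 (adjusted p = 1.6e-04) over the low dose, which was at 24.2 and 26.3 CPM for Polygalae Radix and 26.8, 26.4 and 26.0 for Guibi-tang. BECN1, which shares a complex with UVRAG, was at 45.9 and 47.2 CPM with Polygalae Radix, 41.5, 41.0 and 39.95 with Guibi-tang and 73.8, 71.3 and 81.5 with Menthae Herba, against 66.7, 62.5 and 63.3 in vehicle. It was below vehicle in the first 2 extracts and above it with Menthae Herba, without overlap. The changes were -0.46 ± 0.09 (adjusted p = 2.7e-05), -0.65 ± 0.08 (adjusted p = 2.8e-09) and 0.23 ± 0.08 (adjusted p = 0.0255), the last lost without Menthae Herba high replicate 3 (adjusted p = 0.158). With Aucklandiae Radix BECN1 was at 53.3 and 58.7 CPM at the high dose, against 69.9 and 70.4 at the low dose, without overlap, a change of -0.32 ± 0.10 (adjusted p = 0.00977) that was lost without high replicate 2 (adjusted p = 0.158). ULK1, the initiating kinase, was at 41.6 and 45.1 CPM with Aucklandiae Radix, against 55.7, 57.7 and 57.3 in vehicle, without overlap, and changed by -0.39 ± 0.12 (adjusted p = 0.00765), lost without high replicate 2 (adjusted p = 0.105). With Menthae Herba it was at 64.8, 67.5 and 59.8 CPM at the high dose, against 55.0, 50.5 and 46.5 at the low dose, without overlap, a rise of 0.34 ± 0.10 (adjusted p = 0.0208) that was lost without Menthae Herba low replicate 3 (adjusted p = 0.128).

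WIPI1, a phosphoinositide-binding protein of the forming autophagosome (ENSG00000070540, chromosome 17, 68420948 to 68457513, minus strand), rose with 4 extracts. It was at 47.9 and 41.6 CPM with Aucklandiae Radix, 41.0, 45.5 and 46.5 with Menthae Herba, 39.4, 37.5 and 37.0 with Saengmaek-san and 40.7, 38.7 and 40.4 with Guibi-tang, against 27.2, 29.04 and 26.9 in vehicle. All 11 libraries lay above vehicle. The changes were 0.69 ± 0.11 (adjusted p = 1.4e-06), 0.68 ± 0.10 (adjusted p = 8.1e-07), 0.45 ± 0.10 (adjusted p = 8.1e-04) and 0.53 ± 0.10 (adjusted p = 1.1e-05). The low dose was at 29.9 and 26.7 CPM with Aucklandiae Radix, 27.9, 27.0 and 26.3 with Menthae Herba, 30.0, 29.8 and 27.6 with Saengmaek-san and 30.4, 27.9 and 32.4 with Guibi-tang, and all high-dose libraries lay above their own low-dose libraries. Over the low dose the changes were 0.66 ± 0.12 (adjusted p = 2.7e-05), 0.71 ± 0.10 (adjusted p = 4.3e-07), 0.38 ± 0.10 (adjusted p = 0.0102) and 0.40 ± 0.10 (adjusted p = 4.8e-04), the third lost without Saengmaek-san low replicate 3 (adjusted p = 0.0708). With Polygalae Radix WIPI1 was at 27.9 and 26.7 CPM, within the vehicle range or just below it, while its relative WIPI2 was at 115 and 117 CPM, against 93.2, 92.8 and 95.0 in vehicle. That rise of WIPI2, 0.31 ± 0.11 (adjusted p = 0.0146), was lost without Polygalae Radix high replicate 3 (adjusted p = 0.0840). Over the low dose, at 89.4 and 98.0 CPM, WIPI2 changed by 0.31 ± 0.12 (adjusted p = 0.0285), lost without Polygalae Radix low replicate 2 (adjusted p = 0.208). ATG7, the enzyme that activates LC3 for conjugation, fell with Polygalae Radix, by a log2 change of -1.16 ± 0.21 (adjusted p = 9.1e-06), and Guibi-tang, by a log2 change of -0.81 ± 0.18 (adjusted p = 2.0e-04), and rose with Aucklandiae Radix, by 0.49 ± 0.19 (adjusted p = 0.0477). ATG5, part of the conjugating complex, was called with Aucklandiae Radix alone among the 7, at 0.30 ± 0.11 (adjusted p = 0.0252). Both rises with Aucklandiae Radix were lost without its high replicate 3 (adjusted p = 0.264 for ATG7 and 0.439 for ATG5).

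Of the ubiquitin-like proteins attached to the autophagosome, MAP1LC3B (LC3B, ENSG00000140941, chromosome 16, 87383995 to 87404779, plus strand) rose with 4 extracts, most with Aucklandiae Radix. It was at 202 and 205 CPM there, 109, 112 and 134 with Menthae Herba, 110.4, 104 and 113 with Saengmaek-san and 99.3, 106 and 103 with Guibi-tang, against 84.0, 84.6 and 79.7 in vehicle. All 11 libraries lay above vehicle. The changes were 1.3 ± 0.14 (adjusted p = 4.7e-10), 0.52 ± 0.12 (adjusted p = 0.00201), 0.40 ± 0.12 (adjusted p = 0.0237) and 0.31 ± 0.12 (adjusted p = 0.0334). The last 2 of these were lost without vehicle replicate 3 (adjusted p = 0.0948 and 0.0999). The low dose was at 91.3 and 94.1 CPM with Aucklandiae Radix and 88.0, 88.5 and 91.6 with Menthae Herba, below the high-dose libraries. Over it the change was called with Aucklandiae Radix, 1.13 ± 0.15 (adjusted p = 2.2e-07), and Menthae Herba, 0.41 ± 0.12 (adjusted p = 0.0212), where the tilted high replicate 3 stood highest and the call was lost without it (adjusted p = 0.205). With Saengmaek-san and Guibi-tang the high dose was not called over the low dose, and there set and extract cannot be told apart in the rise over vehicle. The low-dose libraries of every extract tested at single doses were already above vehicle for MAP1LC3B. Their changes were not called and ran from 0.11 with Menthae Herba to 0.28 with Saengmaek-san, with 0.23 for Guibi-tang.

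GABARAPL1, a GABARAP protein (ENSG00000139112, chromosome 12, 10212458 to 10223130, plus strand), rose with 3 extracts, among them Polygalae Radix, where the change of MAP1LC3B was 0.11 ± 0.14 (adjusted p = 0.527) and not called. It was at 33.1 and 37.2 CPM with Polygalae Radix, 32.2, 34.2 and 33.1 with Guibi-tang and 24.1, 28.2 and 31.6 with Menthae Herba, against 20.5, 17.9 and 19.4 in vehicle. The groups did not overlap, and the changes were 0.87 ± 0.18 (adjusted p = 7.6e-05), 0.78 ± 0.16 (adjusted p = 7.6e-05) and 0.54 ± 0.16 (adjusted p = 0.0133), the last lost without the tilted Menthae Herba high replicate 3 (adjusted p = 0.0984). Its level climbed with the dose of Polygalae Radix, at 22.8 and 22.2 CPM at the low, 26.7 and 31.1 at the medium and 33.1 and 37.2 at the high dose, and of Guibi-tang, at 22.7, 24.7 and 25.2 CPM at the low, 26.8, 28.1 and 26.4 at the medium and 32.2, 34.2 and 33.1 at the high dose. Neighbouring doses did not overlap in either extract. High over low dose was 0.64 ± 0.20 (adjusted p = 0.00649) and 0.46 ± 0.16 (adjusted p = 0.0155), lost without Polygalae Radix high replicate 3 (adjusted p = 0.0624) and Guibi-tang low replicate 1 (adjusted p = 0.0502). With Aucklandiae Radix GABARAPL1 was at 18.3 and 21.3 CPM, overlapping vehicle. GABARAPL2 was called with 0 of 7 extracts over vehicle, and lower with Guibi-tang over the low dose, -0.59 ± 0.24 (adjusted p = 0.0348), lost without Guibi-tang low replicate 2 (adjusted p = 0.171). At an unadjusted p under 0.05 it was in 1 of 7 over vehicle.

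**Figure D5:**
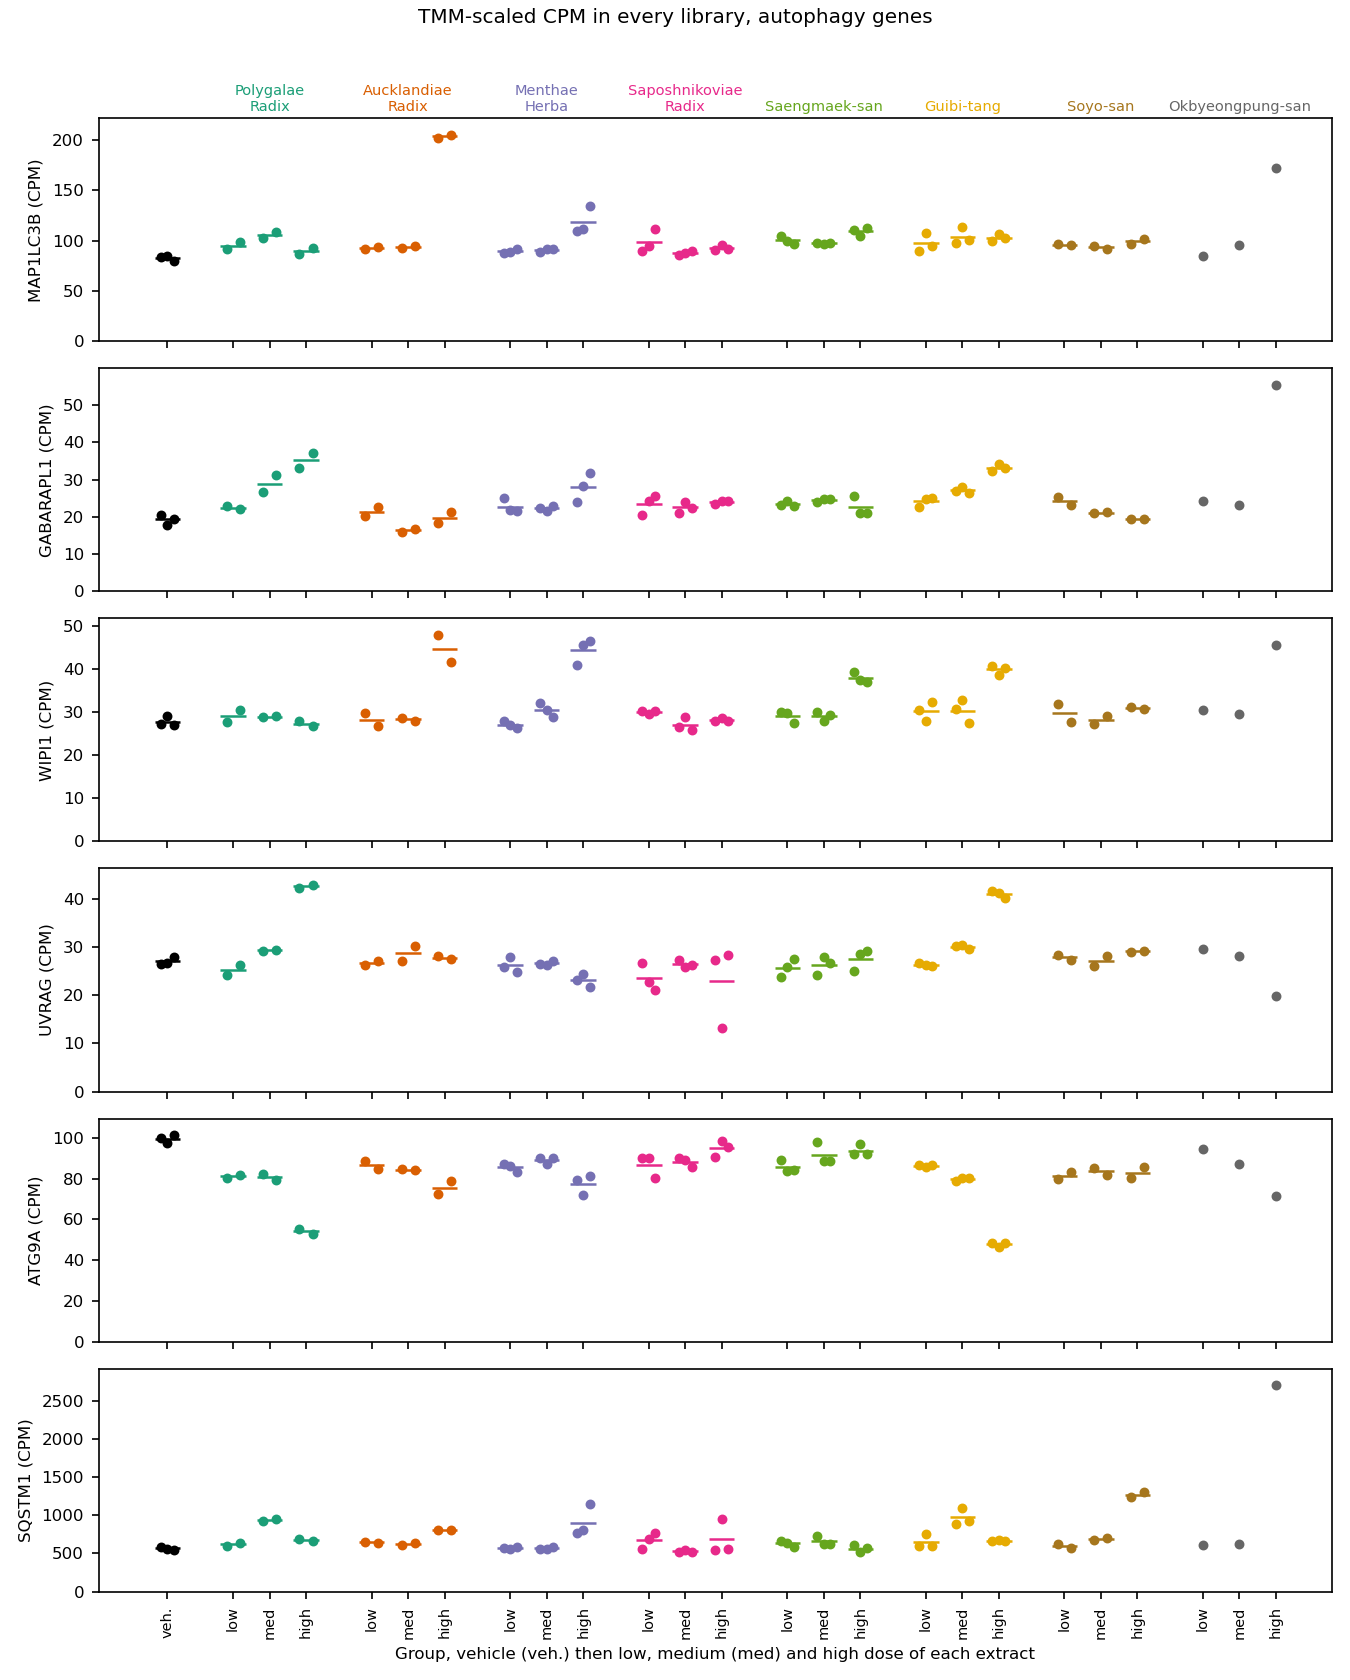
TMM-scaled CPM of 6 autophagy genes in every library (points), with the mean of each group of 2 or 3 libraries (lines), for vehicle and then the low, medium and high dose of each extract. MAP1LC3B is highest with Aucklandiae Radix, GABARAPL1 and UVRAG climb with Polygalae Radix and Guibi-tang while ATG9A falls, and 1 library, the high dose of Okbyeongpung-san, stands apart for SQSTM1 at 2702 CPM.

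Of the receptors, SQSTM1, which encodes p62 (ENSG00000161011, chromosome 5, 179806398 to 179838078, plus strand), was at 1232 and 1302 CPM at the high dose of Soyo-san, against 587, 559 and 551 in vehicle. Both libraries were above vehicle, at 1.16 ± 0.30 (adjusted p = 0.0254), the only call of Soyo-san among the 40 genes, lost without its high replicate 2 (adjusted p = 0.252). Over its low dose, at 625 and 569 CPM, the change was 1.09 ± 0.33 (adjusted p = 0.281). SQSTM1 varied widely among libraries and was called with no other of the 7 extracts at the high dose. With Menthae Herba it was at 769.6, 802 and 1141 CPM, above all vehicle libraries, with a change of 0.68 ± 0.27 (adjusted p = 0.0682). With Polygalae Radix and Guibi-tang its medium dose was higher than its high dose, at 602 and 635 CPM at the low, 923 and 947 at the medium and 692 and 666 at the high dose of Polygalae Radix, and 601, 757 and 602, then 884, 1098 and 930.5, then 657, 674 and 667 CPM in the same order for Guibi-tang. The medium-dose libraries overlapped no library of the other 2 doses in either extract. The medium-dose changes over vehicle were 0.73 ± 0.30 (adjusted p = 0.204) and 0.78 ± 0.27 (adjusted p = 0.0826), and neither was called. NBR1, a related receptor, fell with Polygalae Radix, at 59.4 and 70.1 CPM, and Guibi-tang, at 80.4, 80.4 and 75.1 CPM, against 121, 121 and 122 in vehicle. The groups did not overlap, and the changes were -0.91 ± 0.21 (adjusted p = 3.7e-04) and -0.63 ± 0.18 (adjusted p = 0.00381).

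Extracts of the same library set were also compared at the same dose, 500 µg/mL. Guibi-tang against Saengmaek-san gave 28 lower and 2 higher of the 40 genes, beside 26.7% and 24.6% of all genes, at a median of -0.61. ATP6AP1 was at 129.5, 135 and 150.3 CPM with Guibi-tang, against 329.6, 305 and 304 with Saengmaek-san, and FUCA1 at 9.94, 9.03 and 9.87, against 21.1, 20.6 and 22.0. ATG7 was at 20.5, 20.7 and 19.7, against 49.3, 38.4 and 44.3. No Guibi-tang library reached Saengmaek-san in any of these genes, and the differences were -1.18 ± 0.14 (adjusted p = 3.4e-09), -1.14 ± 0.10 (adjusted p = 3.2e-13) and -1.12 ± 0.18 (adjusted p = 1.3e-06). UVRAG, at 41.7, 41.4 and 40.3 CPM with Guibi-tang against 25.2, 28.5 and 29.2 with Saengmaek-san, and GABARAPL1, at 32.2, 34.2 and 33.1 against 25.7, 21.0 and 21.1, in the same order, were the 2 higher with Guibi-tang, without overlap. They differed by 0.57 ± 0.14 (adjusted p = 6.0e-04) and 0.56 ± 0.16 (adjusted p = 0.00339).

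Menthae Herba against Saposhnikoviae Radix gave 14 lower and 3 higher, beside 7.77% and 5.31% of all genes. Of these 17 calls 0 were left when only the groups compared were fitted, and there were 10 without the low-count filter. LAMP1 was at 343, 304 and 348 CPM with Menthae Herba, against 479, 544 and 467 with Saposhnikoviae Radix, without overlap, and differed by -0.58 ± 0.08 (adjusted p = 7.1e-07). WIPI1 was at 41.0, 45.5 and 46.5, against 28.0, 28.7 and 27.9, again without overlap, and differed by 0.65 ± 0.10 (adjusted p = 2.4e-06). PLBD2 was at 70.1, 62.1 and 49.7 CPM with Menthae Herba, against 100.5, 89.2 and 99.6 with Saposhnikoviae Radix, and differed by -0.67 ± 0.14 (adjusted p = 6.8e-04). ULK1, at 64.8, 67.5 and 59.8 CPM against 56.0, 36.4 and 47.4, differed by 0.46 ± 0.10 (adjusted p = 0.00142). Each group holds 1 tilted library. Saposhnikoviae Radix replicate 2 was the highest of its group for ATP6AP1, at 311, 526 and 309 CPM, against 242, 230.0 and 285 with Menthae Herba, and for CTSD, at 264, 544 and 255, against 210.0, 208 and 283, where the groups overlapped. BECN1 was at 73.8, 71.3 and 81.5 CPM with Menthae Herba, against 66.2, 50.04 and 68.7 with Saposhnikoviae Radix, whose replicate 2 was lowest. Without it the differences of ATP6AP1 (-0.60 ± 0.14, adjusted p = 0.00222), CTSD (-0.60 ± 0.21, adjusted p = 0.0472) and BECN1 (0.29 ± 0.08, adjusted p = 0.00750) were not called (adjusted p = 0.117, 0.650 and 0.0815).

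Below the high dose few of the 40 genes were called. Over 7 extracts together there were 6 calls at the medium dose, 2.25% of tests over all genes being called, and 9 at the low dose, 2.39% being called, of 280 tests each. The medium-dose calls were of PLBD2 with Aucklandiae Radix, Saengmaek-san and Guibi-tang, ATG9A with Polygalae Radix and Guibi-tang, and ULK1 with Aucklandiae Radix, all lower than vehicle. The low-dose calls were PLBD2 lower with Soyo-san, Saposhnikoviae Radix, Guibi-tang and Saengmaek-san, ATG9A lower with Polygalae Radix, Saposhnikoviae Radix and Soyo-san, and CTSL and CTSZ higher with Saposhnikoviae Radix, where the tilted low replicates 2 and 3 were at 218 and 219 CPM for CTSL and replicate 1 at 161. Of these 15 calls, that of ATG9A at the medium dose of Guibi-tang was the 1 that kept an adjusted p under 0.05 with each library left out in turn. Without the tilted libraries there were 70 calls at the medium and 41 at the low dose. Without vehicle replicate 3 there were 3 and 2, and at the low dose 4 without vehicle replicate 1, 3 without vehicle replicate 2, 15 without Saposhnikoviae Radix low replicate 1 and 5 without its low replicate 3.

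Okbyeongpung-san had 1 library a dose, so its doses were pooled. Over vehicle 7 genes were called higher and 2 lower, beside 5.18% and 2.47% of all genes, and all 9 calls were lost without the high-dose library. SQSTM1 was at 606, 629 and 2702 CPM at the low, medium and high dose, GLA at 57.8, 59.0 and 199, MAP1LC3B at 84.6, 96.0 and 172, and GABARAPL1 at 24.1, 23.2 and 55.4. Vehicle was at 587, 559 and 551 CPM for SQSTM1, 54.8, 51.4 and 51.4 for GLA, 84.0, 84.6 and 79.7 for MAP1LC3B and 20.5, 17.9 and 19.4 for GABARAPL1. In each gene the high-dose library stood above all others of the extract. CTSD, at 677 CPM, and CTSB, at 535, were also at their highest of all 60 libraries there, and the 40 genes together held 0.835% of its counts, against 0.546% to 0.568% in vehicle. That library is tilted (slope -0.396), and a single library gives no replicate of the dose. Without vehicle replicate 1, 2 or 3 the count was 5, 3 or 2, without all tilted libraries it was 4, and with only the groups compared 0.

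Another 117 genes of the same pathways were listed and all were tested. With Polygalae Radix 52 fell and 24 rose, beside 25.2% and 22.4% of all genes, and with Guibi-tang 53 and 26, beside 26.6% and 23.4%. The rises with both are near the share over all genes, as are those with Menthae Herba, Saengmaek-san and Saposhnikoviae Radix that follow. With Menthae Herba 33 fell and 12 rose, beside 11.4% and 9.48%, and with Aucklandiae Radix 9 and 30, beside 16.4% and 15.2%. With Saengmaek-san 15 fell and 8 rose, beside 7.63% and 7.66%, with Saposhnikoviae Radix 5 and 7, beside 2.44% and 5.11%, and with Soyo-san 0 and 8, beside 0.817% and 1.12%. The same shares over all genes apply to the smaller lists that follow. The 28 other hydrolases and activators fell in 23 with Polygalae Radix, 23 with Guibi-tang, 16 with Menthae Herba and 6 with Aucklandiae Radix, and rose in 2, 0, 0 and 1. LGMN, an asparaginyl protease, changed by -2.16 ± 0.09 (adjusted p = 6.0e-23) with Polygalae Radix and -1.65 ± 0.08 (adjusted p = 1.6e-21) with Guibi-tang, and CTSC, which activates granule proteases, by a log2 change of -1.97 ± 0.08 (adjusted p = 1.2e-23) and -1.52 ± 0.07 (adjusted p = 1.9e-22). Of 11 other pump subunits 6 rose and 0 fell with Aucklandiae Radix, among them ATP6V1G1, 1.09 ± 0.15 (adjusted p = 1.1e-07), and ATP6V0A1, 0.67 ± 0.09 (adjusted p = 1.5e-07). ATP6V1G1 was called higher with all 7 extracts, also with Polygalae Radix (1.00), Guibi-tang (1.03), Menthae Herba (0.74), Soyo-san (0.60), Saposhnikoviae Radix (0.50) and Saengmaek-san (0.47). All 7 calls rest on the same 3 vehicle libraries, so set and extract cannot be told apart in them. Over the low dose ATP6V1G1 was not among the 2 largest called changes of these subunits with any extract. With Saposhnikoviae Radix, Saengmaek-san and Soyo-san no subunit of this list was called over the low dose. ATP6AP2, an accessory subunit, fell with Polygalae Radix (-1.86 ± 0.14, adjusted p = 8.1e-15), Guibi-tang (-1.19 ± 0.12, adjusted p = 1.8e-11) and Menthae Herba (-0.59 ± 0.12, adjusted p = 1.6e-04). Of 15 other membrane proteins Aucklandiae Radix raised 5 and lowered 0, led by CTNS, the cystine exporter, 1.18 ± 0.14 (adjusted p = 1.4e-08). Of 6 sorting genes, Menthae Herba lowered 4, among them IGF2R, the large receptor for mannose 6-phosphate, by a log2 change of -2.13 ± 0.31 (adjusted p = 1.4e-06).

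Of 19 genes of nutrient sensing at the lysosome, where the kinase mTORC1 is switched on by Rag proteins and off by the TSC complex, 8 rose and 4 fell with Polygalae Radix and 8 rose and 5 fell with Guibi-tang. The falls with both are near the share over all genes. RRAGD, a Rag protein, changed by 3.51 ± 0.37 (adjusted p = 1.2e-10) and 3.32 ± 0.35 (adjusted p = 1.1e-10), and TSC2, of the TSC complex, by a log2 change of -1.84 ± 0.13 (adjusted p = 2.0e-15) and -1.74 ± 0.11 (adjusted p = 8.1e-17). With Menthae Herba DDIT4 (2.44 ± 0.19, adjusted p = 8.7e-13) and SESN2 (2.11 ± 0.08, adjusted p = 8.7e-24), both inhibitors of mTORC1 signalling that are raised in stress, rose, and SESN2 rose with Aucklandiae Radix (1.27 ± 0.08, adjusted p = 4.1e-16). Soyo-san raised 3 of the 19, among them RRAGC (0.64 ± 0.10, adjusted p = 8.9e-05) and FLCN (0.40 ± 0.11, adjusted p = 0.0348), which acts on RagC and RagD. Of 8 other autophagy receptors, Menthae Herba raised 3, BNIP3 by 1.33 ± 0.11 (adjusted p = 3.1e-12) and BNIP3L by 0.82 ± 0.10 (adjusted p = 5.7e-08), both receptors for mitochondria, whereas Polygalae Radix lowered 5, BNIP3 by a log2 change of -1.08 ± 0.13 (adjusted p = 1.6e-09). Of 30 other autophagy core genes 7 rose and 7 fell with Polygalae Radix, 9 and 9 with Guibi-tang, and 9 and 0 with Aucklandiae Radix. For Polygalae Radix and Guibi-tang this is near the share over all genes. ATG2A, a lipid transfer protein that works with ATG9A, changed by -1.07 ± 0.11 (adjusted p = 8.4e-11) with Polygalae Radix and -1.29 ± 0.10 (adjusted p = 9.4e-15) with Guibi-tang.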

How the data were processed

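RNA sequencing of SW1783 cells was deposited by the authors as 1 table of expected counts per gene and library, with no normalization. The submitters' processing notes name RSEM 1.3.3, STAR 2.7.3a, FastQC 0.11.9, Trim Galore 0.6.5 and the GRCh38 build. The strand setting is not given in the sources used here. Libraries were made with a directional mRNA kit and read as 100 bp pairs, per the labels' protocols. Expected counts were rounded, and 18601 genes passed filterByExpr of edgeR 4.0.16 (minimum count 10, total 15). They were scaled by TMM and tested in R 4.3.3 with edgeR's quasi-likelihood test, with 1 mean for each extract and dose (the doses of Okbyeongpung-san pooled) over all 60 libraries and 37 residual degrees of freedom. The p-values were adjusted by Benjamini-Hochberg over all 18601 genes in each of 31 comparisons. Positions and transcript lengths are from GENCODE 29. Whether replicates came from separate cultures is not in the labels, so the p-values measure the spread between these libraries. No 2 libraries held identical counts.

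The 40 genes and the lists of other genes were chosen with earlier results of these data known. Genes were named by a rule, the 4 largest called rises and falls of each high dose against vehicle, the 3 largest against the low dose and between extracts, genes called one way with at least 4 extracts, and TFEB, TFE3, MITF and MCOLN1. The other settings tried were no filter on low counts, RLE scaling, DESeq2 1.42.0, the length slope as a term, a replicate block, leaving out tilted libraries or each library in turn, and fitting only the groups compared. The fit was tested on simulated data.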

Additional observations from a re-analysis of the deposited data

How the results depend on the processing

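Of 94 named gene values, 0 reversed under any alternative. Calls were lost in 24 without the low-count filter, 15 when only the groups compared were fitted, 2 each under RLE size factors, the replicate block and without the length-tilted libraries, 1 with DESeq2 and 0 with the slope covariate, and 30 of the 94 were lost in at least 1 refit that left out a library. Counts of called genes among the 40 moved by over 1.5 times as follows, and the cause was not tested. For high dose against vehicle, Aucklandiae Radix had 15 calls, 9 without the filter, 23 with the slope covariate, 28 without tilted libraries, 28 with only the groups compared and 8 to 12 leaving out 1 library. Menthae Herba had 18, 29 with the covariate and 11 with only the groups compared. Saposhnikoviae Radix had 2, 1 without the filter, 5 with DESeq2, 5 with the covariate, 6 without tilted libraries, 0 with only the groups compared and 0 to 13 leaving out 1 library. Saengmaek-san had 4, with 2, 7, 15, 14, 15 and 2 to 6 in the same order. Soyo-san had 1, with 0, 4, 10, 12, 14 and 0 to 0, and 2 with RLE. For high against low dose, Aucklandiae Radix had 9, 5 without the filter, 19 with the covariate, 20 without tilted libraries, 17 with only the groups compared and 5 to 6 leaving out 1 library. Menthae Herba had 12, with 24 under the covariate, 24 without tilted libraries and 5 with only the groups compared. Saposhnikoviae Radix had 0, 3 with the covariate and 0 to 1 leaving out 1 library. Saengmaek-san had 1, 0 without the filter, 11 with the covariate, 9 without tilted libraries, 4 with only the groups compared and 0 to 1 leaving out 1 library. Soyo-san had 0, 2 with DESeq2, 6 with the covariate, 7 without tilted libraries and 1 with only the groups compared. Okbyeongpung-san had 9, 4 without tilted libraries, 0 with only the groups compared and 0 to 13 leaving out 1 library. Menthae Herba against Saposhnikoviae Radix had 17, 10 without the filter, 26 with the covariate and 0 with only the groups compared. The medium doses had 6 in all, 1 without the filter, 14 with DESeq2, 61 with the covariate, 70 without tilted libraries, 55 with only the groups compared and 3 to 6 leaving out 1 library. The low doses had 9, with 3, 18, 41, 41, 39 and 2 to 15 in that order. Polygalae Radix and Guibi-tang stayed within 1.5 times in every alternative run.

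Replicate numbers were not used to pair the libraries in the main fit. In no comparison with 3 pairs did all same-numbered libraries correlate above 0.1. Comparisons with 2 pairs were not judged by this rule. Among them, Polygalae Radix high against low dose had a correlation of 0.182 in both pairs. With the replicate block, calls were 30 for Guibi-tang, 29 for Polygalae Radix, 18 for Menthae Herba and 14 for Aucklandiae Radix at the high dose over vehicle, and 4 instead of 1 for Soyo-san. Among all genes called at the low dose of Aucklandiae Radix over vehicle, 79% were higher under TMM and 67.6% under RLE. With 19031094 to 37686975 counts per library, depth limits the genes with few counts most, TFEB having the fewest of the 40.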
